A study of Arabidopsis thaliana with 4 samples.

Results

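The 36 probe sets described here were those raised at least 2-fold by light with little red relative to far-red (a low red to far-red ratio, R:FR) at both growth temperatures of the study. They were chosen on the values of the arrays themselves, out of 22810 probe sets on the array. The rule set signals below 14.5 to that value (the floor), took log2, left out the 64 control probe sets and 150 probe sets with IDs from 244901 to 245050, and kept the 13539 whose mean log2 signal reached that of a signal of 23.2 (the measured probe sets). A member was a measured probe set whose log2 signal in low R:FR exceeded that in high R:FR by at least 1 at 16 °C and by at least 1 at 22 °C. The size of the light change, and that it occurred at both temperatures, were therefore fixed by the choice and are given as descriptions.

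Arabidopsis thaliana seedlings of the accession La-er carrying a phyA mutation were grown on soil at a white light intensity of 100 micromoles of photons per square metre and second. The low R:FR group of 16 °C spent 4 days at an R:FR of 4.4 and then 24 h at an R:FR of 0.1, and the high R:FR group of 16 °C spent 5 days at an R:FR of 4.4. The low and high R:FR groups of 22 °C had the same light treatments. The mutation is labelled phyA-2 in both groups of 22 °C and in the high R:FR group of 16 °C, and phyA with no allele in the low R:FR group of 16 °C. By these labels no group, controls included, had functional phytochrome A, the photoreceptor of continuous far-red light. The RNA was that of cotyledons and a little hypocotyl. Each group was 1 array, so every value below is a single measurement with no replicate error and no test was run.

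Phytochromes switch between an active form, which red light makes, and an inactive form, which far-red light restores. Leaves absorb red and pass far-red light, so a low R:FR is a sign of neighbouring plants. In low R:FR less active phytochrome B remains, PIF transcription factors persist, and genes of auxin synthesis and response and of cell expansion are known to rise as stems and petioles elongate. Phytochrome A is known to restrain that response in strong far-red light.

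The deposited signals were scaled alike on the 4 arrays, and their correlation over the measured probe sets (Pearson's r of log2 signals) ran from 0.93 (low R:FR, 16 against 22 °C) to 0.976 (22 °C, low against high R:FR). Transcripts spiked in before hybridization (18 probe sets, signals of 34.5 to 3280) had light differences with an SD of 0.21 (log2) at 16 °C and 0.23 at 22 °C. This leaves out the variation between plants, RNA extractions and labelling reactions. The log2 ratio of 3′ to 5′ signal over 6 pairs of control probe sets, a measure of RNA and label quality, averaged 0.54 in low and 0.82 in high R:FR at 16 °C, and 0.64 in low and 0.73 in high R:FR at 22 °C. It was lower in low R:FR for 6 of 6 pairs at each temperature, but the pairs repeat the same transcripts (actin, GAPDH and ubiquitin) and are not independent. At 22 °C the GAPDH pairs barely differed, at 0.143 in low and 0.151 in high R:FR, and at -0.273 and -0.260. The part of this ratio in the light changes was not tested. Of the markers of the labelled tissue, RCA, which encodes rubisco activase, had signals of 3872.4 to 4327.1 on the 4 arrays, and LHCB4.2, an antenna gene of photosystem II, of 813.9 to 1505.5. The only shoot apex marker with a named probe set, CLV3, stayed below the floor on all 4 arrays. PYK10, a beta-glucosidase gene and the 1 root marker of 7 with a named probe set, had signals of 1082.7 in low and 2023.9 in high R:FR at 16 °C, and of 2834.5 in low and 2912.8 in high R:FR at 22 °C, and its part in the members' changes was not tested.

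Low R:FR raised 224 measured probe sets at least 2-fold at 16 °C (1.65%) and 116 at 22 °C (0.857%). The 36 members make up 16.1% of the first list, 31.0% of the second and 0.266% of the measured probe sets. The rule used both comparisons, so nothing is read from these shares. Of the members 12 had 1 gene in the array's annotation, with 1 probe set each, and 24 had no gene named here. Only 2 of the 12 genes had a symbol, IAA29 and GH3.3, and the other 10 are named by their locus tags.

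Members were dim in high R:FR and of moderate signal in low R:FR. At 16 °C their median signal was 115.1 in low R:FR (range 29.8 to 593.1) and 24.3 in high R:FR (range 2.4 to 158.8). The median at 22 °C was 110.6 in low R:FR (range 29.9 to 526) and 28.25 in high R:FR (range 0.9 to 245.9). All measured probe sets had medians of 85.3 and 84.8 at 16 °C and of 93.8 and 91.3 at 22 °C, low R:FR first in each pair. The high R:FR signal lay below the floor for 9 members at 16 °C and 6 at 22 °C (11 members in all, 4 of them at both), and their folds are bounds, written "at least". Bacterial control transcripts absent from the sample reached 17.9 (the highest of 108 values), and the high R:FR signal was below this for 15 members at 16 °C and 8 at 22 °C. No low R:FR signal of a member was below the floor. The filter on mean signal would have been met by the high R:FR arrays alone for 21 members, and the other 15 passed it only with their low R:FR signals, so that a light change was built into their passing.

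**Figure D1:**
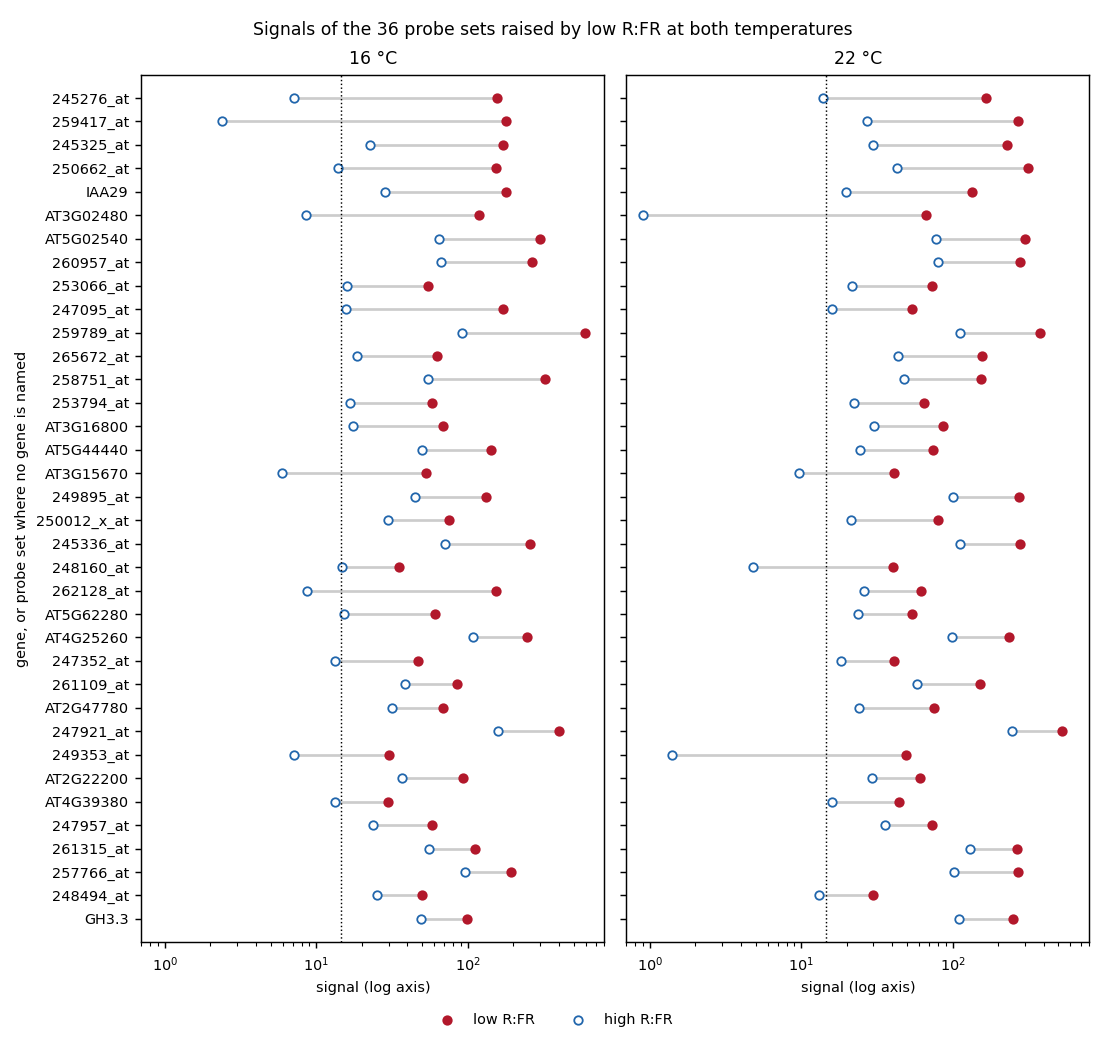
Signal (log axis) of each of the 36 members in low R:FR (filled) and high R:FR (open) at 16 °C (left) and 22 °C (right), 1 array per point, ordered by the smaller of the 2 log2 light changes, with the floor of 14.5 dotted. Every filled point lies right of its open partner, as the choice requires, and 11 members have an open point left of the floor.

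The auxin response genes IAA29 and GH3.3 came first and last of the 12 named members by the smaller of their changes. IAA29 (AT4G32280), an Aux/IAA repressor of auxin-responsive transcription, had signals of 180 in low and 28.5 in high R:FR at 16 °C, and of 134.6 in low and 19.9 in high R:FR at 22 °C. Both low R:FR signals were thus several times above both high R:FR signals, with log2 changes of 2.66 at 16 °C and 2.76 at 22 °C, ranks 14 and 5 among the 13539 measured probe sets. GH3.3 (AT2G23170), an enzyme gene of the GH3 family that conjugates auxin to amino acids, had signals of 99.2 in low and 49.5 in high R:FR at 16 °C, and of 249.2 in low and 109.9 in high R:FR at 22 °C. Here the light groups overlapped, since the low R:FR signal of 16 °C was below the high R:FR signal of 22 °C. Its log2 changes of 1.003 and 1.18 placed it last of the members, and it did not reach 2-fold at both temperatures with quantile normalization, nor when a pseudocount replaced the floor.

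A list of 32 auxin genes had 5 with a named probe set, 4 of them measured, and 2 of these 4 are the members IAA29 and GH3.3 that the rule chose. The other 2 were GH3.5 and YUC2, of which 1 was at least 2-fold higher at 16 °C (1.65% of measured probe sets) and 0 at 22 °C (0.857%). GH3.5 (WES1), of the same enzyme family as GH3.3, was past 2-fold at 16 °C only, with signals of 146.9 in low and 58.3 in high R:FR at 16 °C and of 269.3 in low and 154.3 in high R:FR at 22 °C. GH3.17, the other measured relative of GH3.3 and not on this list, was at log2 -0.11 at 16 °C and -0.06 at 22 °C. YUC2, a gene of auxin synthesis, had log2 changes of 0.18 at 16 °C and 0.25 at 22 °C. Of 28 other Aux/IAA genes 6 had a named probe set and 1, IAA18, was measured, at 0.16 and 0.17. The auxin list, like the others, was drawn up with earlier results of these data known.

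Further up the order stood AT5G02540 and AT3G16800. AT5G02540, which encodes a protein of the short-chain dehydrogenase family, had signals of 300.2 in low and 64.7 in high R:FR at 16 °C, and of 301.7 in low and 77.4 in high R:FR at 22 °C. It was the brightest named member in low R:FR at either temperature, with all 4 signals well above the floor and log2 changes of 2.21 and 1.96. Its 4 measured relatives of 7 listed ran from -0.30 to 1.23 at 16 °C and from -0.24 to 0.63 at 22 °C. The 1.23 was a bound, that of AT5G50130, whose high R:FR signal at 16 °C was below the floor (11.6). AT3G16800, a clade E protein phosphatase of the PP2C class (EGR3) from a group known to regulate growth under water deficit, had signals of 68.4 in low and 17.4 in high R:FR at 16 °C, and of 86.6 in low and 30.1 in high R:FR at 22 °C. The groups did not overlap, an order that 15.1% of the measured probe sets had and that the rule favours. Its log2 changes were 1.97 and 1.52, but the lowest of the 4 signals did not reach the 17.9 of the absent controls. Its relatives EGR1 (AT3G05640) and EGR2 (AT5G27930) had smaller changes of the same sign. EGR1 was at log2 0.77 at 16 °C and 0.79 at 22 °C, and EGR2 at 0.77 and 0.84, so that neither passed 2-fold.

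Late embryogenesis abundant (LEA) proteins are hydrophilic proteins that gather in drying seeds and in leaves under water deficit, and 2 members encode such proteins. AT3G02480 had signals of 118 in low and 8.6 in high R:FR at 16 °C, and of 66.9 in low and 0.9 in high R:FR at 22 °C. Both high R:FR signals were below the floor, which leaves bounds of at least 8.14-fold higher at 16 °C and at least 4.61-fold higher at 22 °C. AT3G15670 had signals of 53.1 in low and 5.9 in high R:FR at 16 °C, and of 41.1 in low and 9.7 in high R:FR at 22 °C, at least 3.66-fold and at least 2.83-fold higher. Of 17 other LEA genes 12 had a named probe set, and none of these was measured. The seed marker list had 1 gene with a named probe set, the glyoxylate cycle gene ICL, with signals of 3.5 in low and 3.2 in high R:FR at 16 °C, both below the floor, and of 131.8 in low and 20.5 in high R:FR at 22 °C. The part of seed reserves in the LEA changes was not tested. Cold-regulated genes, some of which encode dehydrins of the LEA class, had 6 with a named probe set of 13 listed, all measured, with 0 members. At 16 °C 3 of these 6 were at least 2-fold higher in low R:FR (1.65% of measured probe sets), and at 22 °C 0 were (0.857%). These 3 were COR15A (log2 4.36 at 16 °C and -0.61 at 22 °C), COR15B (3.41 and 0.16) and LTI30 (1.05 and -0.47). COR15A had a high R:FR signal of 15.3 at 16 °C, below the highest of the absent controls. Its signals at 22 °C were also dim, 18.8 in low and 28.7 in high R:FR.

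A pair of members belong to families that act on or in the cell wall. AT4G25260, of the pectin methylesterase inhibitor family, whose products are known to block the removal of methyl groups from pectin, had signals of 245.9 in low and 108.1 in high R:FR at 16 °C, and of 235.4 in low and 99.4 in high R:FR at 22 °C. The signals of each light condition were thus close at both temperatures, with log2 changes of 1.19 and 1.24. Of 11 relatives 9 had a named probe set, and the 7 of these that were measured moved either way. AT1G62770 was at log2 1.59 at 16 °C and 0.87 at 22 °C, whereas AT5G62360 was at -1.63 and -1.65. AT5G44440, a berberine bridge enzyme-like gene (a family of flavin oxidases, some of which oxidize cell wall sugars), had signals of 142.4 in low and 49.8 in high R:FR at 16 °C, and of 73.8 in low and 24.5 in high R:FR at 22 °C. Its 9 measured relatives of 26 listed had 0 that were at least 2-fold higher at 16 °C (1.65% of measured probe sets) or at 22 °C (0.857%) and 3 at least 2-fold lower at 16 °C (2.9%), with medians of -0.89 at 16 °C and 0.17 at 22 °C. Several of these relatives had low R:FR signals below the floor at 16 °C, so their changes there are bounds. Among 14 genes of wall loosening (expansins and xyloglucan endotransglucosylases) only 5 had a named probe set, and the rest could not be looked up. These 5 were all measured and 0 were members, with medians of 0.41 at 16 °C and 0.45 at 22 °C. The highest of their changes was 0.97, that of XTH19 at 22 °C.

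The other 4 named members fall into no group above. AT2G22200, a transcription factor of the DREB branch of the AP2/ERF family, had signals of 92.6 in low and 36.9 in high R:FR at 16 °C, and of 60.5 in low and 29.4 in high R:FR at 22 °C, with log2 changes of 1.33 and 1.04. Its relative AT1G64380 was at 0.89 and 1.71, past 2-fold at 22 °C only, and its other measured relative, AT4G39780, was at 0.26 and -0.03. AT2G47780, of the small rubber particle family of lipid droplet proteins, had signals of 68.7 in low and 31.5 in high R:FR at 16 °C, and of 75.5 in low and 24.2 in high R:FR at 22 °C (log2 1.12 and 1.64). The lipid droplet protein gene LDAP1 (AT1G67360) was at 1.02 and -0.06, and LDAP3 (AT3G05500) at -0.50 and -0.01. AT5G62280 had signals of 61.2 in low and 15.2 in high R:FR at 16 °C, and of 54.3 in low and 23.6 in high R:FR at 22 °C (log2 2.01 and 1.20). AT4G39380 had signals of 29.8 in low and 13.3 in high R:FR at 16 °C, at least 2.06-fold higher, and of 44.3 in low and 16 in high R:FR at 22 °C (log2 1.47). For all 4 the light groups did not overlap, an order that 15.1% of the measured probe sets had and that the rule favours. The high R:FR signals of AT4G39380 at both temperatures and of AT5G62280 at 16 °C were below the highest of the absent controls. The relatives, like the gene families, were looked up after the members were known.

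**Figure D2:**
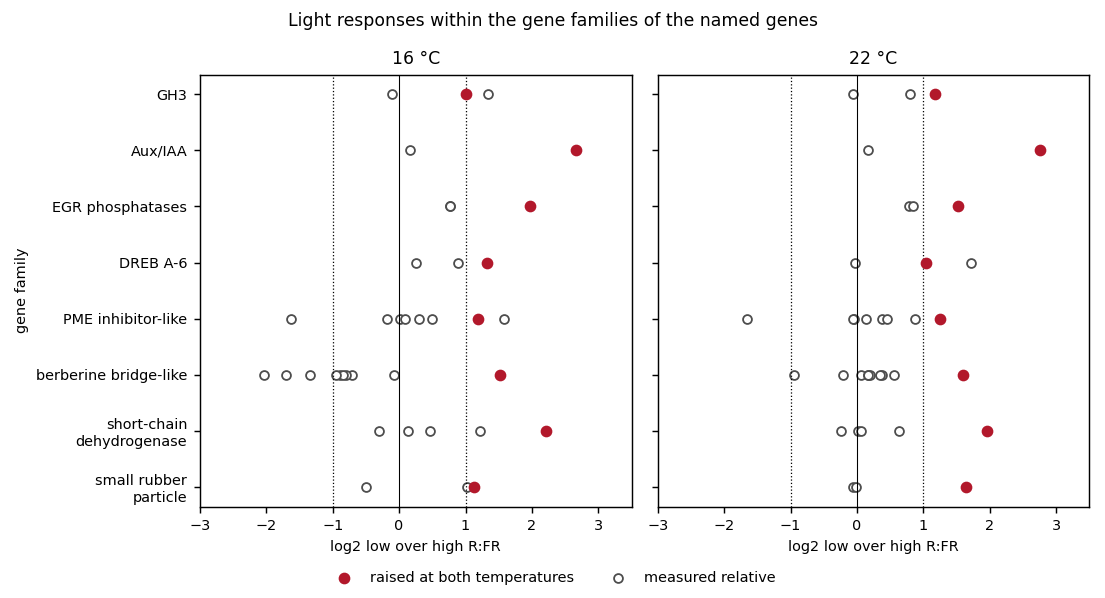
Log2 change in low over high R:FR at 16 °C (left) and 22 °C (right) for 8 named members (filled) and the measured relatives of each (open), 1 value per point, with dotted lines at 2-fold higher and lower. The EGR relatives lie between 0.77 and 0.84 at both temperatures, and the 9 berberine bridge enzyme-like relatives all lie below 0 at 16 °C.

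In the other lists, no gene that could be looked up by name was a member. Most genes of these lists had no probe set named here, so whether they were measured or raised is not known. The 24 members with no gene named here could not be set against the lists, and genes of the lists may be among them. Of 15 shade markers only 1 had a named probe set, HAT2, a homeodomain-leucine zipper gene. It was measured, at log2 0.55 at 16 °C and 0.59 at 22 °C. HYH, a bZIP factor of light signalling and the 1 gene of 14 listed with a named probe set, was at -0.26 and -0.33. EIN3, a transcription factor of ethylene signalling and the 1 gene of 9 listed with a named probe set, was at 0.20 and 0.27. Gibberellin and brassinosteroid genes had 4 with a named probe set of 15 listed, all measured. Of these 1 was at least 2-fold higher at 22 °C (0.857% of measured probe sets) and 1 at least 2-fold lower (0.502%). At 16 °C 0 passed 2-fold in either direction. GID1A, a gibberellin receptor gene, was the higher 1 (log2 1.15), and GID1C the lower (-1.09). GID1B was at -0.53 at 16 °C and 0.56 at 22 °C, and BIM1 at 0.86 and 0.77. Flavonoid genes had 3 with a named probe set of 9 listed, all measured. Of these 1 was at least 2-fold lower at 16 °C (2.9% of measured probe sets) and 2 at 22 °C (0.502%), with medians of -0.71 and -1.25. UGT75C1 (AT4G14090), an anthocyanin glucosyltransferase gene, was at -1.22 at 16 °C and -1.25 at 22 °C, and UF3GT at -0.71 and -1.33.

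The 24 members with no gene named here include the most raised ones. Those given by ID were chosen after their values were seen. The 4 members with the highest smaller change were all among them, and the first of these, 245276_at, had signals of 155.4 in low and 7.1 in high R:FR at 16 °C, and of 165.7 in low and 13.9 in high R:FR at 22 °C. It was at least 10.7-fold higher at 16 °C and at least 11.4-fold higher at 22 °C. Next came 259417_at, with signals of 180.1 in low and 2.4 in high R:FR at 16 °C, and of 270.2 in low and 27.1 in high R:FR at 22 °C. The third, 245325_at, had signals of 171.2 in low and 22.6 in high R:FR at 16 °C, and of 229.1 in low and 29.9 in high R:FR at 22 °C, so that its log2 changes of 2.92 and 2.94 rest on signals above the floor throughout. The brightest low R:FR signals were those of 259789_at at 16 °C (593.1 in low and 91.5 in high R:FR) and of 247921_at at 22 °C (526 in low and 245.9 in high R:FR). Over the 24, the log2 change ran from 1.01 to 3.63 at 16 °C with a median of 1.77, and from 1.03 to 3.51 at 22 °C with a median of 1.61. The probe set 250012_x_at is of a type that its array design marks as sharing sequence with others.

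The rule required a change of at least 1 at each temperature, so the likeness of the responses is a description. The median log2 change was 1.77 at 16 °C and 1.53 at 22 °C, 20 members changed more at 16 °C and 16 more at 22 °C, and for 34 of 36 the responses, with the floor applied, were within a factor of 2 of each other, as they were for 93.7% of the measured probe sets. The other 2 members changed more at 16 °C. The probe set 262128_at had signals of 153.3 in low and 8.7 in high R:FR at 16 °C, and of 61.6 in low and 25.8 in high R:FR at 22 °C. The probe set 247095_at had signals of 171.5 in low and 15.8 in high R:FR at 16 °C, and of 53.5 in low and 15.9 in high R:FR at 22 °C. In both the low R:FR array of 16 °C was the highest of the 4, and the difference between the responses was at least 2.15 for 262128_at, with 1 signal below the floor, and 1.69 for 247095_at, both of whose high R:FR signals were below 17.9. These differences depend on the floor. With it lowered to the 10th percentile of all signals (2.3), 29 of 36 were within a factor of 2, against 93.1% of the measured probe sets. Of the other members 4 changed more at 16 °C and 3 more at 22 °C. The 3 were 249353_at (log2 2.098 at 16 °C and 4.42 at 22 °C with that floor), 248160_at (1.26 and 3.07) and AT3G02480 (3.78 and 4.86).

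**Figure D3:**
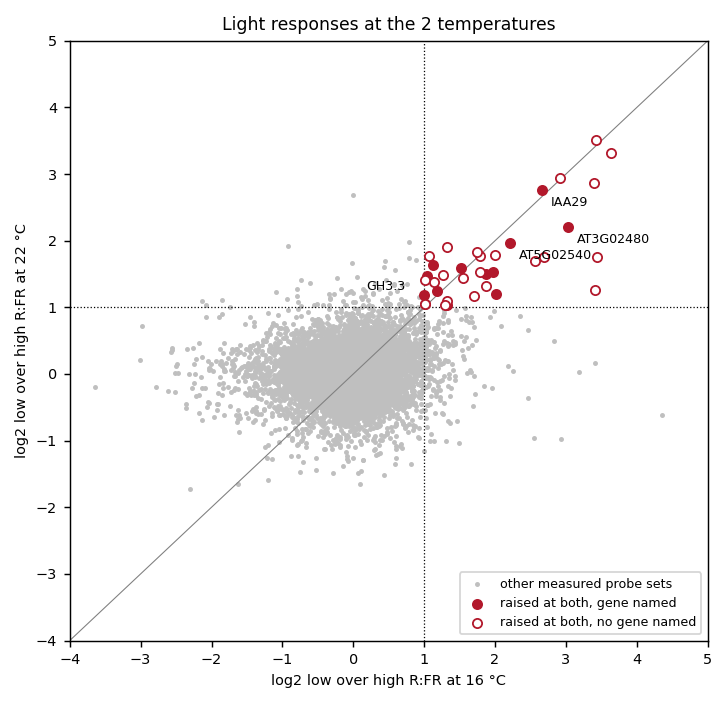
Log2 change in low over high R:FR at 16 °C (x axis) and at 22 °C (y axis) for the 36 members (large points, filled where a gene is named) and the other measured probe sets (grey), 1 value per point. Dotted lines mark 2-fold, the diagonal marks equal responses, and 34 of the 36 members lie within 1 of it with the floor at 14.5.

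At the edge of the rule, 3 members had a smaller change just above 1: 257766_at (1.01 at 16 °C and 1.40 at 22 °C), 248494_at (1.01 and 1.04) and GH3.3. Just outside it were AT5G12050 (1.58 and 0.99), AT1G48330 (1.44 and 0.96) and 251017_at (1.28 and 0.95). These gaps are smaller than the SD of the spiked transcripts. Signals of AT5G12050, for example, were 206.3 in low and 69 in high R:FR at 16 °C, and 165.9 in low and 83.4 in high R:FR at 22 °C, so that its low R:FR signals were above the members' medians.

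Both low R:FR signals exceeded both high R:FR signals for 34 members, an order that 15.1% of the measured probe sets had and that the rule favours. The exceptions were GH3.3 and 261315_at (112.2 in low and 55.5 in high R:FR at 16 °C, 267.8 in low and 129.3 in high R:FR at 22 °C). For 261315_at the level differed more between the temperatures than between the light conditions.

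The temperatures were then compared within each light condition, which the rule did not do, although these comparisons use the same 4 arrays. In high R:FR the members had a median log2 change of -0.28 at 16 against 22 °C, where all measured probe sets had -0.04, and in low R:FR of -0.12, where all had -0.05. In high R:FR 5 of the 36 (13.9%) were at least 2-fold lower at 16 °C, against 3.01% of measured probe sets, and 1 (2.78%) was at least 2-fold higher, against 1.12%. In low R:FR 5 (13.9%) were lower, against 6.51%, and 3 (8.33%) were higher, against 1.58%. No test of these shares was run, and with 36 members 1 probe set is 2.78%. Members were dimmer in high R:FR than the measured probe sets they are set against. For 4 members both high R:FR signals were below the floor, which sets their change there to 0.

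The 5 members lower at 16 °C were the same in both light conditions, and 1.41% of the measured probe sets were lower in both. They were GH3.3, 250662_at, 265672_at, 249895_at and 261315_at. The high R:FR signal of 250662_at at 16 °C (13.9) was below the floor, so its log2 change of -1.56 in high R:FR is a bound. GH3.3 had a log2 change at 16 against 22 °C of -1.33 in low and -1.15 in high R:FR. For 249895_at the signals were 132.7 at 16 and 274.6 at 22 °C in low R:FR, and 45.2 at 16 and 101 at 22 °C in high R:FR. For 265672_at they were 62.7 at 16 and 155.3 at 22 °C in low R:FR, and 18.7 at 16 and 43.7 at 22 °C in high R:FR. Both probe sets thus had their highest signal in low R:FR at 22 °C and their lowest in high R:FR at 16 °C, as did the other 3. This order was fixed by picking members that were lower at 16 °C in both light conditions, so nothing is read from it. The changes at the 2 light conditions are not independent, since a member with like responses at both temperatures must have like temperature changes in both light conditions. Among the named members AT5G44440 was the 1 that was at least 2-fold higher at 16 °C in high R:FR (log2 1.02), and it was at 0.95 in low R:FR. In low R:FR 262128_at, 247095_at and 258751_at were at least 2-fold higher at 16 °C (log2 1.32, 1.68 and 1.07). Plants of both temperatures were harvested at the same age, so temperature and growth stage cannot be told apart.

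**Figure D4:**
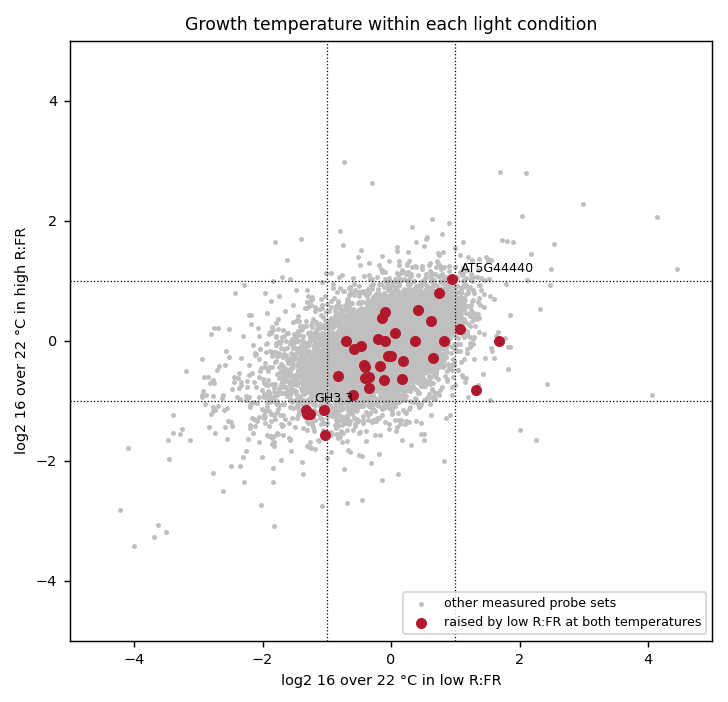
Log2 change at 16 over 22 °C in low R:FR (x axis) and in high R:FR (y axis) for the 36 members (large points) and the other measured probe sets (grey), 1 value per point, with dotted lines at 2-fold. A group of 5 members with GH3.3 lies past 2-fold lower on both axes, and AT5G44440 is the 1 member past 2-fold higher in high R:FR.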

How the data were processed

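Transcript levels were measured on 1 Affymetrix array for each of 4 conditions. The authors deposited 1 linear intensity for each probe set and array, and MAS5 is the tool that the submitters' processing notes name. Settings and detection calls of that step remain not given in the sources used here. Each array had a 2% trimmed mean of about 100.01, so the signals were used as deposited. The floor of 14.5 is the 30th percentile of all signals and limits every fold of a dim gene. Precision is limited by the number of arrays. Signals of different probe sets are not compared as transcript amounts.

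Gene names came from the array's annotation table, with symbols taken by gene number from the RefSeq table of TAIR10.1. Of the measured probe sets 7237 (53.5%) had 1 gene. Coordinates are not printed, since the build behind the array values is unknown, and sequences were not used here, so a planned count of promoter motifs was not made. Members and gene lists were chosen with earlier results of these data known. All members with a gene are named, with list genes past 2-fold, 3 probe sets on each side of the threshold, and family relatives looked up afterwards. Alternatives were other scalings, floors and filters, a pseudocount and a 3-fold threshold. The counting was tested on simulated data. Analyses used Python 3.11.15 with numpy 2.4.6 and pandas 2.3.3.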

Additional observations from a re-analysis of the deposited data

Results flagged for a closer look

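The IDs that the rule left out, taken as the range of organelle probe sets, also held probe sets raised at both temperatures. Of 104 probe sets with these IDs that passed the same filter, 13 (12.5%) were at least 2-fold higher in low R:FR at both temperatures. The share was 0.266% of the 13539 measured probe sets outside this range. What lies behind the difference was not tested, and these 13 are not counted among the members.

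Several list genes and relatives had light changes of opposite sign at the temperatures, on 1 array per condition, and none of these differences was tested. On the log2 scale, at 16 and then 22 °C, the changes were 4.36 and -0.61 for COR15A, 1.05 and -0.47 for LTI30, and -0.33 and 1.15 for GID1A. Among relatives of members they were 1.02 and -0.0603 for LDAP1 and 1.23 and -0.24 for AT5G50130, of the short-chain dehydrogenase family. The berberine bridge enzyme-like genes AT1G26380 (-2.04 and 0.0664), AT1G26390 (-1.35 and 0.37) and AT1G30700 (-1.70 and 0.35) were lower in low R:FR at 16 °C and slightly higher at 22 °C. Some of these sizes at 22 °C are within the spread of the spiked transcripts.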

How the results depend on the processing

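The number of members was 36 with no filter, with a common trimmed mean and with the floor lowered to the 10th percentile, 32 with a common median, 30 with quantile normalization and 26 with a filter at the median of all probe sets. It fell to 17 with the floor raised to the 50th percentile (a signal of 37.8), 23 with a pseudocount equal to the floor and 13 at 3-fold. Every probe set raised at both temperatures under these alternatives was one of the 36. For the stricter filter, the higher floor and 3-fold this was fixed in advance, since these settings can only drop members. Of the members 13, IAA29, AT5G02540 and AT4G25260 among them, passed under all 7 settings of scaling and floor, the main one included. The probe sets raised at 16 and 22 °C were 97 and 44 with the higher floor, 100 and 48 with the pseudocount, 128 and 55 with the stricter filter, and 51 and 25 at 3-fold. The filter, higher floor and 3-fold counts can only be lower by construction. Members' median log2 changes at 16 and 22 °C were 1.16 and 1.09 with the higher floor and 1.27 and 1.21 with the pseudocount, both of which shrink changes of dim genes.

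Of the temperature counts, those in high R:FR were 0 higher and 3 lower with either of these 2 settings, with a median of 0 for the higher floor, and 4 were higher with the lower floor. Those in low R:FR were 3 lower with the pseudocount and with a common median, where the median over members was 0.05. Scaling to a common median moved the median of all measured probe sets at 16 against 22 °C to 0.13 in low and 0.08 in high R:FR, against -0.05 and -0.04. Of 144 values of named members under alternatives 143 were above 0 and 123 at least 1. Members with light changes within 2-fold of each other at both temperatures, a count tried under other settings after seeing the data, were 34, and 29 to 34 under 6 alternatives of scaling and floor, the lowest with the lower floor. No fit with temperature as a block was run for the light change, since the rule chose the members on that change at both temperatures. Signals below the floor limit the folds of 11 members.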
